A study of Mus musculus with 15 samples.

Results

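The suppressor of cytokine signalling (SOCS) genes Socs1, Socs2, Socs3 and Cish were followed in dendritic cells (DC) grown from marrow of the diabetes-prone NOD mouse. Probe sets were taken whose only gene symbol in the platform annotation was one of these 4. That gave 5 of the 12422 probe sets tested, for 4 of 8251 genes: 1 each for Socs1 (92832_at), Socs2 (99475_at) and Cish (100022_at), and 162206_f_at and 92232_at for Socs3. The main Socs3 probe set, by the highest mean over the arrays, was 162206_f_at. In Affymetrix naming its "_f" marks a set whose probes may match several related transcripts.

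SOCS proteins are the feedback inhibitors of cytokine receptors that signal through Janus kinases (JAK) and STAT transcription factors. STATs switch SOCS genes on, and the proteins bind the activated receptor or kinase through an SH2 domain and recruit a ubiquitin ligase through the SOCS box. SOCS1 and SOCS3 also block the kinase itself. SOCS1 is best known for restraining signalling by interferon-γ and interleukin-4, and in mice its loss makes DC overreact. SOCS3 acts on receptors of the interleukin-6 and G-CSF type. CIS, the product of Cish, and SOCS2 are classical STAT5 targets that bind receptors such as those of growth hormone and, for CIS, interleukin-2. GM-CSF signals through STAT5 and interleukin-4 through STAT6.

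Marrow of female mice aged 6 to 8 weeks was grown for 4 days in 1 ng/ml GM-CSF (GM DC) or in GM-CSF plus 1 ng/ml interleukin-4 (GM4 DC), so the controls had also seen GM-CSF. DC were purified on a metrizamide gradient, of 16% for GM and 14.5% for GM4 DC, and given LPS (10 µg/ml) and interferon-γ (50 ng/ml). Gradient and culture went together, so their parts in a difference between the DC types cannot be told apart. RNA was taken at 0, 6 and 20 h. The GM groups comprise 3, 2 and 2 arrays at these times and the GM4 groups 3, 3 and 2. The labels call the replicates biological. The source name of the GM4 samples at 0 h mentions stimulation although their titles say 0 h, and doses and gradient are missing from the label of GM4 0 h replicate 1. Values are MAS5 signals. Differences are of log2(signal + 16), which understates changes of dim probe sets, with limma's standard error after ±. A gene passed when its Benjamini-Hochberg adjusted p, over all probe sets of that limma comparison, was under 0.05.

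Short stretches at the RefSeq starts of 3 of the genes (assembly GRCm38.p6) are shown because they hold the letter patterns that STAT and interferon regulatory factors are known to bind. They read 5′ to 3′ on the gene's strand, with matches in capitals. For Cish this is chr9:107296559-107296678 (plus strand, from 100 bases before the start to base 20 after it). For Socs3 it is chr11:117969467-117969566 (minus strand, bases -200 to -101), and for Socs1 chr16:10785587-10785686 (minus strand, bases -150 to -51).
Cish: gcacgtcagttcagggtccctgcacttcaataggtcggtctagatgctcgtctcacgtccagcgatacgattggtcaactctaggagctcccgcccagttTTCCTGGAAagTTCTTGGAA
Socs3: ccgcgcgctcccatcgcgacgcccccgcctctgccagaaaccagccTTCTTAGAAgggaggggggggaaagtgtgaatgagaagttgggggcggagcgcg
Socs1: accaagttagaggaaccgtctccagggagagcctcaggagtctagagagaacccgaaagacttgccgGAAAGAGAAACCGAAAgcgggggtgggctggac
The pattern TTCNNNGAA, the STAT consensus, was searched on both strands of the whole windows of 300 bases, from 250 before to 50 after the start. It occurred at 2 places in the Cish window, both after the start (bases 1 to 9 and 12 to 20), and at 1 in the Socs3 window, before it (bases -154 to -146), and none was in the Socs1 window. Among all 32841 windows 8.3% held it, and 0.457% held it at 2 or more places. TTC and GAA parted by any 4 bases, the spacing that STAT6 prefers, was in none of the 3 windows and in 6.95% of all. A pair of GAAA parted by any 2 bases, the core of interferon regulatory factor sites, was added after the sequences and values had been seen. It occurred in the Socs1 window as 2 overlapping matches that overlap no other pattern, against 3.44% of all windows with a match and 0.225% with 2 or more. A match is a string of letters and does not show binding.

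Arrays within groups correlated at 0.966 or more, and precision is limited by how few there are. The median signal was 40.1 to 48.5 per array, and 29.7% to 35.3% of probe sets were below a signal of 16. All 17 listed DC markers were measured, with Cd74, the MHC class II chaperone, between 4760 and 9868. Their summed signal was 21050 to 28110 in GM and 35610 to 46930 in GM4 DC at 0 h. At 6 h it was 32900 to 38820 against 33940 to 45970, and at 20 h 14720 to 20520 against 23810 to 26830. Each DC marker exceeded 16 on at least 1 array, but so did all 16 measured neutrophil, 12 macrophage and 5 erythroid markers. The summed neutrophil signal was 9844 to 15610 at 0 h and 4035 to 5574 at 20 h over both DC types, and the erythroid one 135.5 to 248.1 over all arrays. Monocyte and macrophage markers followed the DC type. The summed signal of the 12 measured of 15 was 13710 to 16600 in GM and 4804 to 5313 in GM4 DC at 0 h. At 6 h it was 18720 to 25700 against 5167 to 6714, and at 20 h 15760 to 16770 against 9085 to 9339; none of the 12 was below 16 on all arrays. Of T and NK cell markers 4 of 9 (Cd3d, Cd3g, Ncr1 and Prf1) were below 16 on all arrays, as were 2 of 10 B cell markers and 6 of 12 of mast cells, basophils and eosinophils. The 3′ to 5′ signal ratio of the Gapdh control, which rises with RNA degradation, was 1.18 to 2.46 on the 7 GM arrays, a range that the 3 arrays at 0 h alone covered, and 1.03 to 1.48 on the 8 GM4 arrays. For β-actin it was 1.43 to 2.26 and 1.13 to 1.44. Less RNA per cell and fewer cells of a type cannot be told apart in such bulk samples. The part of the macrophage and DC markers in the SOCS differences was not tested. For RNA quality, values with these ratios as a covariate are given for the SOCS differences at 0 h. Elsewhere they are given where they end or add a call or turn a direction.

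Before stimulation, DC grown with interleukin-4 had more Socs1, Socs2 and Cish transcript than DC grown with GM-CSF alone, by 2.77-fold, 3.4-fold and 3.1-fold. Socs3 did not pass. In all, 3 of 4 SOCS genes were higher and none lower, where 8.05% of all genes were higher and 8.16% lower.

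Socs1, the inhibitor of interferon-γ and interleukin-4 signalling, gave signals of 281.6, 274.7 and 173.8 on GM arrays at 0 h. On GM4 arrays they were 695.6, 727.1 and 645.5. Every GM4 array lay above every GM array, with means of 689.4 ± 41.1 (SD, n = 3) against 243.4 ± 60.3 (SD, n = 3). The log2 difference was 1.47 ± 0.196 (adjusted p = 0.000197, limma), and 0.98 with the RNA quality covariate, still past the threshold (adjusted p = 0.0167).

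Socs2 signals at 0 h were 675.6, 509.2 and 483.7 on GM arrays and 2555, 1855 and 1473 on GM4 arrays. The groups did not overlap, although the GM4 arrays spread over a wider range than the GM arrays. The log2 difference was 1.77 ± 0.175 (adjusted p = 2.42e-05, limma), and 1.38 with the RNA quality covariate (adjusted p = 0.00154).

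Cish signals at 0 h were 278.2, 212.5 and 238.8 on GM arrays and 998.8, 819.1 and 587.1 on GM4 arrays. Again no GM4 array fell within the GM range. The log2 difference was 1.63 ± 0.244 (adjusted p = 0.00046, limma). With the RNA quality covariate it was 1.21 and only just passed (adjusted p = 0.0408, limma).

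Socs3 signals in unstimulated cells of both kinds were low against those after stimulation. The main probe set gave 134.9, 132.2 and 143 on GM arrays and 96.68, 100.5 and 110.3 on GM4 arrays. The GM4 arrays were the lower ones without overlap, yet the log2 difference of -0.37 ± 0.321 did not pass (95% interval -1.06 to 0.323, adjusted p = 0.515, limma), nor did the -0.68 found with the RNA quality covariate (adjusted p = 0.478). On 92232_at the groups overlapped, at 40.31 to 74.38 and 37.84 to 54.75, and the difference was -0.21 ± 0.285 (adjusted p = 0.695). On the main probe sets the groups did not overlap for any of the 4 genes at 0 h, which also held for 31.9% of all probe sets.

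**Figure D1:**
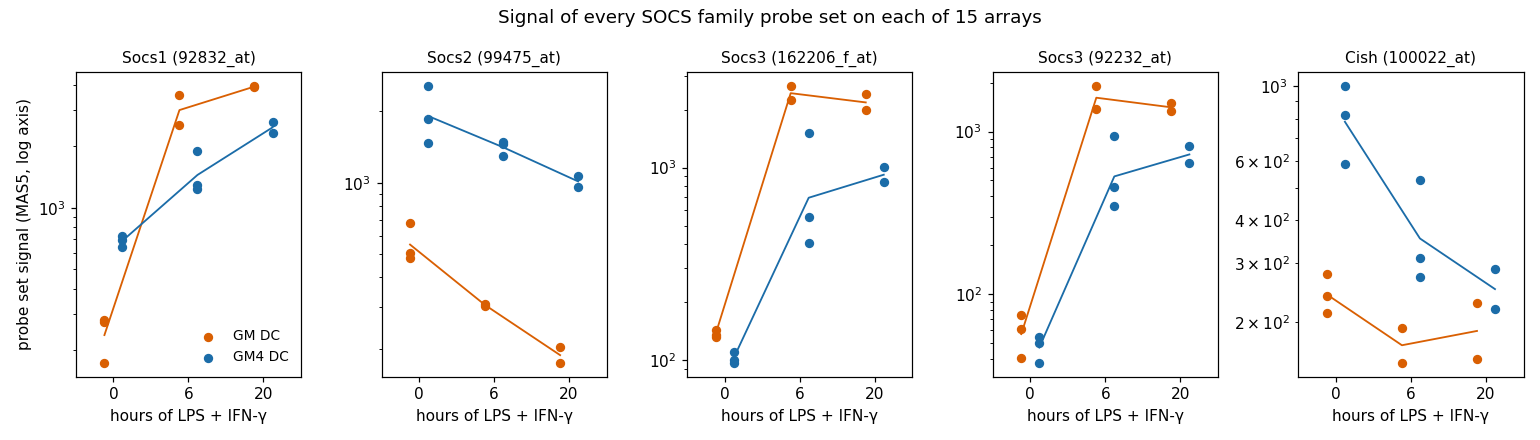
Signal of each SOCS family probe set (log axis) against hours of LPS and interferon-γ, 1 point per array, GM DC in orange and GM4 DC in blue, with lines through the geometric means of the groups. GM4 arrays lie above GM arrays for Socs1, Socs2 and Cish at 0 h; at 6 h they lie below for Socs1 and Socs3 and above for Socs2 and Cish.

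After LPS with interferon-γ, Socs1 and Socs3 were higher than at 0 h in both kinds of DC, while Socs2 and Cish did not rise in either. The series holds no unstimulated arrays at 6 or 20 h, so stimulus and time in culture cannot be told apart. A response here means the change from 0 h. At 6 h in GM DC 2 of the 4 had risen and 1 had fallen, where 9.31% of all genes were higher and 19.3% lower. At 20 h the counts were the same, against 12.6% and 18.5%. In GM4 DC at 6 h, 2 were higher and 1 lower, against 6.76% and 12.3% of all genes, and at 20 h 2 were higher and 2 lower, against 9.65% and 14.3%.

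By the fitted fold, Socs3 rose more at 6 h than the other 3 genes in each DC type, a ranking given as a description. In GM DC it reached 2655 and 2237 at 6 h and 1984 and 2399 at 20 h, all far above the 0 h arrays. The change was 16.1-fold at 6 h (log2 4.01 ± 0.359, adjusted p = 2.41e-06, limma) and 14.4-fold at 20 h (3.85 ± 0.359). In GM4 DC the 6 h arrays read 1505, 554.5 and 406.2, and the 20 h arrays 1006 and 838.6. Replicate 1 at 6 h stood well above the other two. The change was 6.05-fold at 6 h (2.60 ± 0.321, adjusted p = 8.44e-05, limma) and 7.89-fold at 20 h (2.98 ± 0.359). The probe set 92232_at moved the same way, with 1904 and 1367 in GM and 933.2, 456.6 and 348.7 in GM4 DC at 6 h, and with 22.2-fold and 8.66-fold rises. From 6 to 20 h no difference passed for Socs3 in GM DC (-0.16 ± 0.393, interval -1 to 0.686) or in GM4 DC (0.39 ± 0.359, interval -0.386 to 1.16). Without GM4 6 h replicate 1 the latter was 0.93 and passed (adjusted p = 0.0028, limma).

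Socs1 rose 11.9-fold in GM DC at 6 h (log2 3.57 ± 0.219, adjusted p = 7.51e-08, limma) and 15.5-fold at 20 h (3.95 ± 0.219). Its GM signals were 3564 and 2539 at 6 h and 3946 and 3899 at 20 h. In GM4 DC it read 1894, 1239 and 1291 at 6 h and 2640 and 2318 at 20 h. These rises were 2.08-fold (1.05 ± 0.196, adjusted p = 0.00202, limma) and 3.53-fold (1.82 ± 0.219). All stimulated arrays lay above all 0 h arrays of the same DC type, as they did for Socs3. In GM DC, groups did not overlap for 44.1% of all probe sets at 6 h and 48.5% at 20 h, and in GM4 DC for 33.9% and 49.6%. Socs1 still rose between 6 and 20 h in GM4 DC, by 0.77 ± 0.219 (adjusted p = 0.0356, limma). It was the only 1 of the 4 to do so, where 6.91% of all genes were higher and 7.01% lower. In GM DC 0 of 4 passed in limma's test from 6 to 20 h, against 10.5% of genes higher and 8.62% lower, and of these Socs2 (-0.66 ± 0.215) had an unadjusted p of 0.00878 and passed in 5 of 11 alternatives and without any 1 of 3 arrays. That Socs1 call in GM4 DC was lost without any 1 of GM4 6 h replicates 2 (0.66) and 3 (0.69) or GM4 20 h replicates 1 (0.67) and 2 (0.86), and with only these 2 groups in the fit (adjusted p = 0.0585).

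Socs2 fell after stimulation. GM signals were 308.4 and 304 at 6 h and 203.1 and 174.9 at 20 h, below every 0 h array. The changes were -0.81 ± 0.196 at 6 h (adjusted p = 0.00712, limma) and -1.47 ± 0.196 at 20 h (adjusted p = 5.7e-05), the latter 2.77-fold. GM4 signals were 1485, 1299 and 1459 at 6 h, within reach of the lowest 0 h array (1473), and 1072 and 959.3 at 20 h. The change of -0.43 ± 0.175 at 6 h did not pass (interval -0.81 to -0.0563, adjusted p = 0.121), though it did without GM4 0 h replicate 3 (-0.62), with the RNA quality covariate (-0.48) or with the replicate number as a block (-0.43, adjusted p = 0.0382). That of -0.90 ± 0.196 at 20 h passed (adjusted p = 0.00436, limma). Without GM4 20 h replicate 2 it was -0.83 and did not pass (adjusted p = 0.0584).

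Cish fell in GM4 DC, from 587.1 or more at 0 h to 525.1, 271.9 and 310.4 at 6 h and 287.9 and 218.4 at 20 h. The changes were -1.11 ± 0.244 (2.16-fold, adjusted p = 0.00607, limma) and -1.58 ± 0.272 (3-fold, adjusted p = 0.000844). In GM DC, Cish read 192.9 and 151.8 at 6 h and 228.8 and 155.5 at 20 h. Its changes from 0 h there did not pass (-0.46 ± 0.272, interval -1.05 to 0.123, and -0.33 ± 0.272, interval -0.916 to 0.253).

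After 6 h of stimulation the difference between the DC types had turned for Socs1, and the 4 genes were split. Socs2 and Cish were higher in GM4 than in GM DC and Socs1 and Socs3 lower, that is 2 of 4 each way, where 7.73% of all genes were higher and 5.26% lower. Socs2 was 4.43-fold higher (2.15 ± 0.196, adjusted p = 3.39e-05, limma), at 1414 ± 101 (SD, n = 3) against 306.2 ± 3.08 (SD, n = 2). Socs3 was 3.43-fold lower (-1.78 ± 0.359, adjusted p = 0.00592), at 821.8 ± 596 (SD, n = 3) against 2446 ± 295 (SD, n = 2), and on 92232_at it was 2.98-fold lower (adjusted p = 0.00597). Socs1 was 2.07-fold lower (-1.05 ± 0.219, adjusted p = 0.00714), at 1474 ± 364 (SD, n = 3) against 3051 ± 725 (SD, n = 2). Cish was 1.98-fold higher (0.98 ± 0.272, adjusted p = 0.0316), at 369.1 ± 136 (SD, n = 3) against 172.4 ± 29.1 (SD, n = 2). Arrays of the DC types did not overlap at 6 h for any of the 4, as for 40.9% of all probe sets. Without GM 6 h replicate 1 the calls for Socs1 (-0.80, adjusted p = 0.11), Socs3 (-1.66, adjusted p = 0.0677) and Cish (1.14, adjusted p = 0.0908) were lost, as they were with only these groups in the fit (adjusted p = 0.0584, 0.0908 and 0.0932), while Socs2 kept its call in all alternatives. The Cish call was also lost without GM 6 h replicate 2 (0.83), GM4 6 h replicate 1 (0.71) or replicate 3 (1.08), with quantile normalization (0.86) and with the RNA quality covariate (0.55). With the replicate number as a block all 4 genes kept their calls. Cish was then higher by 1.085 (adjusted p = 0.00144, limma). Socs1 was lower by -0.94 (adjusted p = 0.00396) and Socs3 by -1.68 (adjusted p = 0.00875) in that fit.

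At 20 h only Socs2 passed between the DC types, 1 of 4 higher where 3.54% of all genes were higher and 1.87% lower. It was 5.04-fold higher in GM4 DC (2.33 ± 0.215, adjusted p = 9.85e-05, limma), at 1016 ± 79.5 (SD, n = 2) against 189 ± 19.9 (SD, n = 2). Socs1 was at 2479 ± 228 (SD, n = 2) in GM4 and 3923 ± 33.1 (SD, n = 2) in GM DC, a difference of -0.66 ± 0.24 (interval -1.18 to -0.147, adjusted p = 0.153). With the RNA quality covariate it was -1.28 and passed (adjusted p = 0.0291), and with only these groups in the fit both Socs1 (adjusted p = 0.0354) and Socs3 (adjusted p = 0.0162) passed. With the replicate number as a block neither Socs1 (adjusted p = 0.0528, limma) nor Socs3 (adjusted p = 0.0803) did. Socs3 differed by -1.23 ± 0.393 (interval -2.08 to -0.389, adjusted p = 0.0981), and passed without GM4 6 h replicate 1 (adjusted p = 0.00122) or replicate 3 (adjusted p = 0.0445). Cish differed by 0.38 ± 0.298 (interval -0.259 to 1.02, adjusted p = 0.596) and turned to -0.15 with the RNA quality covariate. Its arrays overlapped, whereas those of the other 3 genes did not, as for 48.1% of all probe sets.

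**Figure D2:**
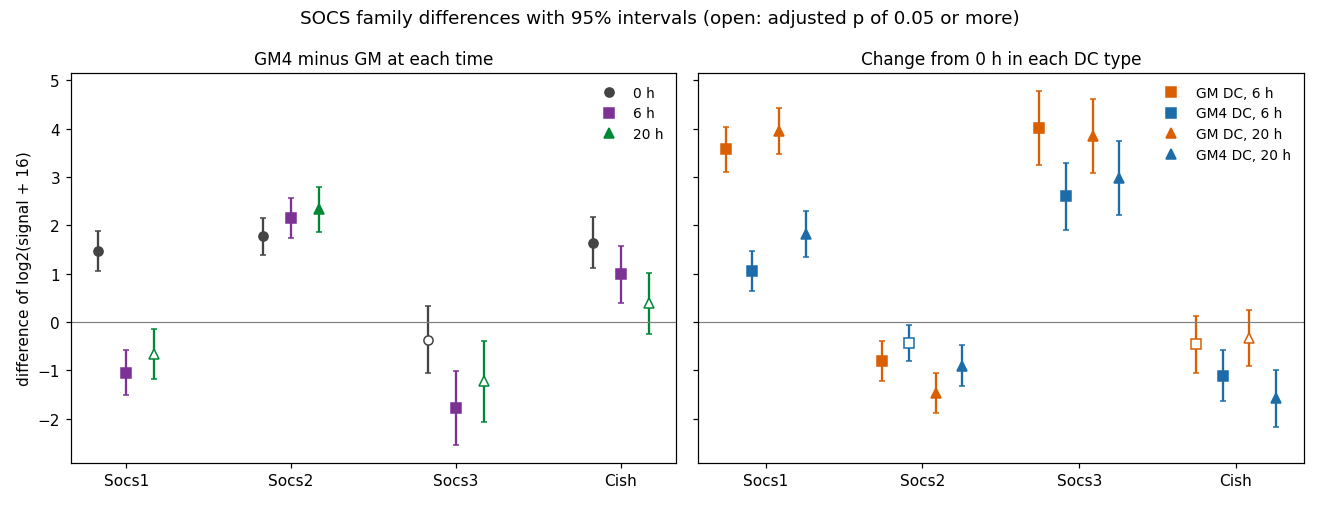
Differences of log2(signal + 16) for the main probe set of each SOCS gene with limma's 95% intervals, GM4 minus GM at 0, 6 and 20 h on the left and 6 h or 20 h minus 0 h in each DC type on the right; filled symbols passed the test. Socs1 goes from 1.47 at 0 h to -1.05 at 6 h, and Socs2 stays between 1.77 and 2.33.

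The size of the response itself differed between the DC types for Socs1. Its rise was smaller in GM4 than in GM DC by 2.52 ± 0.294 on the log2 scale at 6 h (adjusted p = 0.00141, limma interaction term). At 20 h it was smaller by 2.13 ± 0.309 (adjusted p = 0.00561), and this call was lost without GM4 20 h replicate 2 (-2.04, adjusted p = 0.0538). Such a lower response was called for 0.606% of all genes at 6 h and for 0.861% at 20 h, and for 1 of the 4 SOCS genes. A larger response was called for 0.63% at either time and for none of the 4. For Socs3 the difference of the 6 h responses was -1.41 ± 0.482 (interval -2.45 to -0.376, adjusted p = 0.207), and without GM4 6 h replicate 1 it was -1.96 and passed (adjusted p = 0.00122, limma). For Cish it was -0.65 ± 0.365 at 6 h (interval -1.43 to 0.136) and -1.25 ± 0.385 at 20 h (interval -2.08 to -0.424, adjusted p = 0.152). For Socs2 it was 0.38 ± 0.263 (interval -0.185 to 0.946) and 0.56 ± 0.277 (interval -0.0312 to 1.16). These comparisons share arrays with those above.

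Ordered by group means, Socs1 was highest in GM DC at 20 h, followed by GM at 6 h, GM4 at 20 h, GM4 at 6 h, GM4 at 0 h and GM at 0 h. Neighbours among the first 3 could not be told apart (adjusted p = 0.353 and 0.551, limma), and each later step passed. Socs2 ran from GM4 at 0, 6 and 20 h to GM at 0, 6 and 20 h. The lowest GM4 group exceeded the highest GM group by 0.86 ± 0.196 (adjusted p = 0.00514, limma), where 21.7% of probe sets differed between these groups. Within GM4 DC neighbours did not pass (adjusted p = 0.121 and 0.163), and in GM DC the step from 6 to 20 h was short of the threshold (adjusted p = 0.0524). With the replicate block each of these steps passed (adjusted p = 0.0382, 0.0298 and 0.0129, limma). For Socs3 the order was GM at 6 and 20 h, GM4 at 20 and 6 h, GM at 0 h and GM4 at 0 h, and the only neighbours that passed were GM4 at 6 h and GM at 0 h (2.23 ± 0.321, adjusted p = 0.000125, limma), as did 24.8% of all probe sets. For the Socs1 step from GM at 6 h to GM4 at 20 h the share was 11.7%. For Cish only the top step passed, from GM4 at 0 h to GM4 at 6 h, followed by GM4 at 20 h and GM at 0, 20 and 6 h. With the replicate block the Cish step from GM4 at 6 h to GM4 at 20 h passed too (adjusted p = 0.041, limma).

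Other genes of the pathway were taken from 10 lists that covered 115 measured genes, some of them in more than 1 list. GM4 DC had 29 of the 115 higher and 12 lower than GM DC at 0 h, where 8.05% and 8.16% of all genes were. The counts were 13 and 14 at 6 h, against 7.73% and 5.26%, and 10 and 6 at 20 h, against 3.54% and 1.87%. The same shares stand behind the counts of each list below. Genes whose call was lost in at least 1 of 26 alternatives are marked with a dagger in the following paragraphs.

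Janus kinases and STATs were higher in GM4 DC before stimulation. All 4 kinases were higher at 0 h (median 0.82, against -0.06 for all genes): Jak2 by 1.78 ± 0.172, Tyk2† by 1.10 ± 0.325, Jak3† by 0.53 ± 0.111 and Jak1† by 0.50 ± 0.126. Jak2, the kinase of the GM-CSF and interferon-γ receptors, had a signal of 1117 ± 178 (SD, n = 3) in GM4 and 314.8 ± 63.2 (SD, n = 3) in GM DC. Of 5 measured STATs 4 were higher and 1 did not pass (median 0.93). Stat4, which carries interleukin-12 signals, was higher by 2.48 ± 0.24, Stat5b† by 1.61 ± 0.31, Stat5a by 0.93 ± 0.12 and Stat3† by 0.50 ± 0.145. Stat6 was at 784.7 ± 105 (SD, n = 3) against 549.6 ± 146 (SD, n = 3) and did not pass (adjusted p = 0.0729, limma). At 6 and 20 h 0 of 4 kinases passed in limma's test (2 and 1 at an unadjusted p under 0.05), and Stat4 was the only STAT that did, by 1.65 ± 0.268 and 1.86 ± 0.293.

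Among 28 measured cytokine receptors 4 were higher and 4 lower at 0 h (median -0.14). Il12rb2†, a chain of the interleukin-12 receptor, was higher by 1.51 ± 0.296, Il7r by 0.92 ± 0.167 and Il4ra†, the interleukin-4 receptor chain, by 0.83 ± 0.237. The probe sets of Il4ra disagreed, since their mean differed by 0.36 (adjusted p = 0.283, limma). Il6ra, the interleukin-6 receptor chain, was lower by -1.38 ± 0.155. The GM-CSF receptor chain Csf2rb (adjusted p = 0.103) and the interferon-γ receptor chains Ifngr1 (adjusted p = 0.0737) and Ifngr2 (adjusted p = 0.325) did not pass in limma's test at 0 h. They were chosen by name as receptors of the agents used. Of 22 measured ligands Il6 (1.78 ± 0.261) and Il15† (0.79 ± 0.167) were higher at 0 h and Lep† (-0.66 ± 0.2) lower. In limma's test at 6 h Il12a (-1.93 ± 0.23), Il12b† (-1.29 ± 0.342) and Csf3† (-1.18 ± 0.253) were lower in GM4 DC and Il15† higher (1.04 ± 0.187).

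Of 5 further measured SOCS box genes, Socs5 belongs to the SOCS family itself and did not pass at 0 h (-0.34 ± 0.2, adjusted p = 0.311, limma). Spsb1, which recognises inducible nitric oxide synthase, was higher in GM4 DC at 0, 6 and 20 h by 1.37 ± 0.199, 1.70 ± 0.223 and 1.51 ± 0.244. Wsb1† was lower at 6 h (-0.68 ± 0.182) and the rest did not pass. Of 4 measured partners in the ubiquitin ligase, Elob† was higher at 0 h (0.47 ± 0.123) and, at 6 h, Eloc† (0.90 ± 0.18) and Elob† (0.64 ± 0.137). Of 10 other JAK-STAT inhibitors, Usp18, which blocks the type I interferon receptor, was higher at 0 h by 1.18 ± 0.135 and Pias3†, an inhibitor of Stat3, by 0.71 ± 0.164. At 6 h Pias3 was higher (1.18 ± 0.183) and the phosphatase Ptpn1† lower (-1.07 ± 0.2).

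Of 12 listed STAT3 targets, 10 rose and 1 fell in GM DC at 6 h (median 1.51, against -0.05 for all genes), and 7 rose and 1 fell in GM4 DC (median 0.66, against -0.02). At 6 h the GM4 DC were lower than GM DC in 5 of the 12 and higher in 0 by limma's test (1 at an unadjusted p under 0.05). Saa3†, an acute phase protein, differed by -1.83 ± 0.472, the transcription factor Cebpb by -1.76 ± 0.174 and Il1rn, the antagonist of the interleukin-1 receptor, by -1.39 ± 0.163. Of the pathway genes 5 had a smaller 6 h response in GM4 DC, namely Jak2† (-1.90 ± 0.257), Il6† (-2.52 ± 0.391), Il12a† (-1.88 ± 0.309), Bcl6† (-1.41 ± 0.288) and Usp18 (-1.20 ± 0.203). By limma's test 0 of the 115 had a larger one (9 at an unadjusted p under 0.05).

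Of 13 further STAT5 targets on the list, 2 were higher and 2 lower in GM4 DC at 0 h (median -0.18). Kit, a growth factor receptor, was higher by 1.43 ± 0.183 and the cyclin Ccnd2 by 1.12 ± 0.229, and Egr1† and Id1† were lower by -0.72 ± 0.207 and -0.67 ± 0.206. Of 14 STAT6 targets 7 were higher and 3 lower (median 0.57). The chitinase-like Chil3 (3.46 ± 0.157) and the transcription factors Irf4 (2.15 ± 0.254) and Batf3 (2.11 ± 0.183) were among the former and Klf4 (-1.55 ± 0.182) among the latter.

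**Figure D3:**
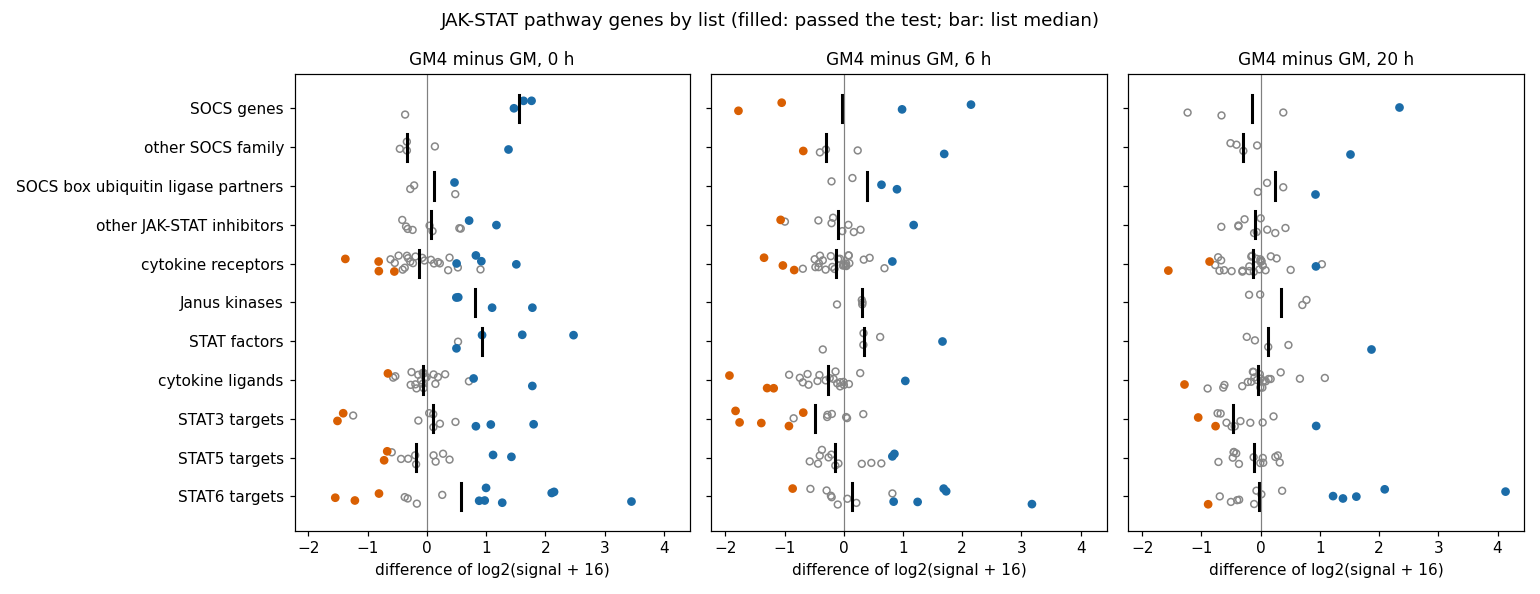
Difference of log2(signal + 16), GM4 minus GM, at 0, 6 and 20 h for the 4 SOCS genes and each gene of the 10 pathway lists; filled points passed the test (blue higher, orange lower), open points did not, and the bar is the list median. All 4 Janus kinases and 4 of 5 STATs are filled on the right at 0 h, and none of the kinases at 6 or 20 h.

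Genes with the most similar pattern over the 15 arrays were sought among 3060 genes whose group means spanned at least 1 on the log2 scale. Pearson correlations are given as descriptions, since all arrays share the 6 groups. For Socs1 they were Ubr4 (0.974), Dusp16 (0.966), Gbp2 (0.965), Samhd1 (0.959) and Irf1 (0.959), against a median of -0.268 over the candidates. For Socs2 they were Ddt (0.97), Tnfaip8 (0.956), Slc27a3 (0.953), Rassf2 (0.952) and Aldh1a2 (0.949), with a median of 0.155. Nampt (0.983), Ccrl2 (0.981), Nos2 (0.977), Ptk2b (0.972) and Slco3a1 (0.971) were most like Socs3, with a median of -0.322. Cish had lower values, from Rbl2 (0.934), Lipe (0.924), Asgr2 (0.923) and Fabp5 (0.919) to Fezf2 (0.914), with a median of 0.172. Aldh1a2, the retinoic acid synthesising enzyme, kept the order seen for Socs2, with group means of 9.42, 9.25 and 8.13 in GM4 DC at 0, 6 and 20 h and 7.5, 7.49 and 5.89 in GM DC. Nos2 had group means of 4.73, 9.67 and 9.51 in GM DC and 4.74, 7.99 and 9.1 in GM4 DC.

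**Figure D4:**
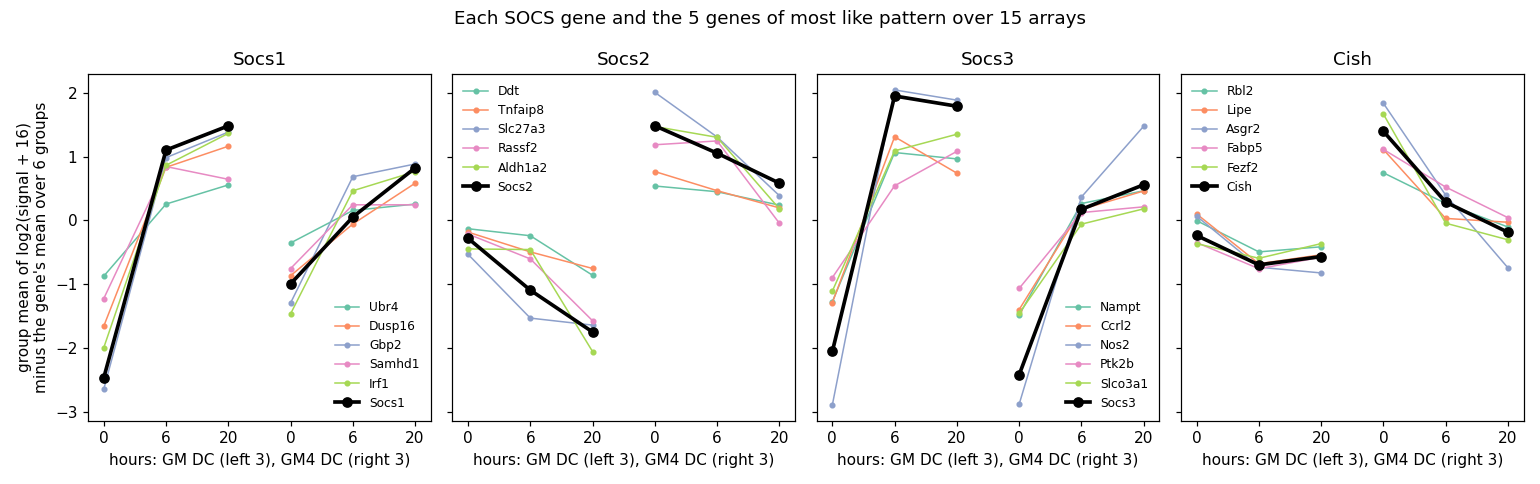
Group means of log2(signal + 16), each gene centred on its mean over the 6 groups, for a SOCS gene (black) and its 5 most similar genes (colours), with GM DC at 0, 6 and 20 h on the left of each panel and GM4 DC on the right. The Socs1 panel shows a steeper rise in GM than in GM4 DC, and the Socs2 panel higher levels in GM4 DC at every time.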

How the data were processed

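What the authors deposited is a linear intensity per probe set from 15 Affymetrix arrays, 1 per sample. The submitters' processing notes name MAS5. Each array had been scaled beforehand, as its trimmed mean was 150.1 on all 15. MAS5 treats arrays separately, so low signals vary much, and a change of total RNA per cell cannot be seen. Groups follow the sample titles.

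The 66 control probe sets among 12488 were not used, which left 12422, with no filter on low signals. By the platform annotation 10833 carry 1 symbol (10817 matched by Entrez number), 396 carry several and 1193 carry none. The probe set of highest mean represents a gene. In R 4.3.3 with limma 3.58.1, log2(signal + 16) was fitted with 6 group means (9 residual degrees of freedom) and empirical Bayes moderation with a trend. For each of 11 contrasts p was adjusted by Benjamini-Hochberg over all probe sets, and the procedure was tested on simulated data. Per pathway list and contrast only the 4 largest differences that passed could be named, besides receptors of the agents used, Stat6 and Socs5. For similar patterns the 5 highest Pearson correlations were named. The genes and lists were chosen with earlier results of these data known, and 1 pathway list is not reported here. Alternatives were offsets of 1 and 64, quantile normalization, centring on the median, leaving out the dimmest 40%, no trend, a replicate block, an RNA quality covariate, fitting only the groups compared, averaging every gene's probe sets, leaving out each array, and leaving out GM 0 h replicate 3 with GM 6 h replicate 1, which had earlier been doubted. Same-numbered arrays of GM4 DC at 0 and 6 h deviated together (correlations of 0.193, 0.187 and 0.115). Stimulated arrays of the DC types did so as well within each time, with values given below. The labels do not state a pairing, so the replicate block is an alternative fit and not a known pairing. Promoter sequences are from RefSeq (GRCm38.p6), where 3 of 4 members matched.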

Additional observations from a re-analysis of the deposited data

Results flagged for a closer look

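The change of Socs1 from 0 h after LPS with interferon-γ differed between the DC types by the interaction term of the fit. The difference of log2 responses, GM4 minus GM, was -2.52 ± 0.294 at 6 h (adjusted p = 0.00141, limma) and -2.13 ± 0.309 at 20 h (adjusted p = 0.00561). Socs1 rose in all 5 stimulated GM4 arrays and all 4 stimulated GM arrays, from a higher level in GM4 DC. In the same fit no other SOCS gene passed, and with a replicate block Cish did at 20 h (-1.25, adjusted p = 0.0177, limma). Groups of 2 or 3 arrays are too small for a test of single outlying arrays.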

How the results depend on the processing

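Of 1144 single-gene differences compared over 11 alternatives and 15 fits without 1 array, 1098 kept direction and side of the threshold, 20 lost the call, 22 gained one and 4 turned. The counts of SOCS genes that passed between the DC types were 3 at 0 h in every alternative. Of the other counts only the larger moves follow. The loss of Cish alone at 6 h, with quantile normalization or the RNA quality covariate, is therefore not among them. From 0 to 6 h the count of 3 reached 4 in some alternatives in each DC type. At 6 h the count of 4 became 2 without the doubted arrays, 1 with only the groups compared and 1 to 4 without single arrays. At 20 h the count of 1 became 2 with the RNA quality covariate, 3 with only the groups compared and 1 to 2 without single arrays. From 6 to 20 h in GM DC, 0 became 1 with an offset of 1, quantile normalization, the filter on dim probe sets, the replicate block and the mean of all probe sets, and 0 to 1 without single arrays; in GM4 DC, 1 became 3 with the replicate block, 0 with only the groups compared and 0 to 2 without single arrays. For the difference of responses, 1 became 1 to 2 without single arrays at 6 h, and 2 with the replicate block and 0 to 1 without single arrays at 20 h. The turned values, none of which passed, were Cish between DC types at 20 h with the RNA covariate (-0.15), Socs3 from 6 to 20 h in GM DC with quantile normalization (0.028), and Cish there without single arrays, from -0.13 to 0.39. The background shares of called genes are over 8251 genes and were not recounted in the alternatives. The related counts of probe sets that passed, out of 12422 in the main fit, moved too. Between DC types 1736 at 0 h fell to as few as 1114 without single arrays and 964 with the RNA covariate, 1383 at 6 h to 604 and 794, and 584 at 20 h to 146 and 335. With only the groups compared they were 1143 at 0 h and 723 at 6 h, and without the doubted arrays 678 at 6 h. Without single arrays, 3012 from 0 to 6 h in GM DC fell to 1929 and 2044 from 6 to 20 h to 1242, and in GM4 DC 2606 from 0 to 20 h fell to 1392 and 1452 from 6 to 20 h to 566. Differing responses ranged from 54 to 298 around 119 at 6 h (206 with the replicate block, 70 with only the groups compared and 213 with the filter) and from 15 to 168 around 157 at 20 h (260 with the block). The pairing criterion was a correlation over 0.1 in every same-numbered pair, which GM4 DC met from 0 to 6 h. Between the DC types it was also met within 6 h (0.279 and 0.181) and within 20 h (0.296 in both pairs). GM 0 h with GM4 20 h met it too (0.12 and 0.161), and the remaining combinations of groups did not. Among the latter was GM 0 h with GM4 0 h, at 0.332, 0.056 and 0.225. The limit of 0.1 was a choice, and meeting it does not show that arrays were paired. In a group of 2 arrays the deviations mirror each other, so such pairs are not independent. Deviations of all same-numbered arrays correlated at 0.0026 to 0.332 (median 0.1, 16 of 33 over 0.1). Those of others correlated at -0.296 to 0.173 (median -0.0758, 2 of 60 over 0.1). With the block, Socs2 from 6 to 20 h passed in both DC types (adjusted p = 0.0129 in GM and 0.0298 in GM4), as did Cish from 6 to 20 h in GM4 (0.041), from 0 to 6 h in GM DC (0.0272) and in the difference of 20 h responses (0.0177). The block changed no other SOCS call besides these and Socs2 from 0 to 6 h in GM4 DC. The cause of these changes was not tested. Groups of 2 or 3 arrays limit every comparison.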
